A study of Mus musculus with 2 samples.

Results

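The peaks described here are the promoter peaks of late retinal progenitor cells (RPCs) that climbed furthest in the ranking of accessible regions after overexpression of Ngn3 (Ngn3-OE). Chromatin accessibility had been profiled by ATAC-seq, in which the transposase Tn5 inserts sequencing tags into open DNA, in 1 control library and 1 Ngn3-OE library. Mouse pups received plasmid by in vivo electroporation of the retina at postnatal day 1, GFP-labelled cells were sorted 2 days after electroporation, and 50000 cells labelled retinal progenitor cells entered each library. Control cells carried a GFP label without the Ngn3 plasmid, and neither the strain nor the number of pooled animals is given in the sources used here. With 1 library per group there is no replicate check, so every difference below compares 2 libraries and not 2 conditions.

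Each peak carried a fold enrichment (the tags at its summit over the local background), and peaks were ranked by it within their own library on a scale of 0 to 100 percentiles. The control library held 117165 distinct peaks and the Ngn3-OE library 124935, and 91741 control peaks overlapped an Ngn3-OE peak. Of these pairs, 21336 had a control summit within 1 kb of a protein-coding transcript start and are called promoter pairs. The members are the 5% of promoter pairs with the largest Ngn3-OE minus control percentile, 1067 peaks nearest to 1027 genes, among 21336 pairs at 13147 genes. The members were chosen by the measured fold enrichment ranks of both libraries, and the rule thus fixed the rise itself, the low starting rank and the share of 5%. A rise of at least 28.7 percentiles was needed to enter, so that no peak above percentile 71.3 in control could do so. A fall of the same size or more was seen in 492 promoter pairs (2.31%). Just inside the threshold lay peaks of Akap17b (shift 28.7003), Sox6 (28.6875) and Tpi1 (28.6847), and just outside it peaks of Fbxl15 (28.6686), Gprasp2 (28.6612) and Deup1 (28.6479).

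Ngn3 is a basic helix-loop-helix (bHLH) transcription factor of the neurogenin family, which pairs with E proteins, binds E-box sequences and drives progenitors toward neuronal fates. In the developing retina late RPCs give rise mainly to rods, bipolar cells and Müller glia, and the homeobox factors OTX2 and CRX, which bind a core written GGATTA, open and activate photoreceptor genes. A promoter is usually accessible over the nucleosome-free stretch just before the transcript start, and weaker accessible shoulders often flank it. At the overexpressed gene itself, no control peak lay within 10 kb of the Neurog3 start, whereas 1 Ngn3-OE peak did, with a fold enrichment of 23.1. Plasmid DNA and chromosomal DNA of that gene cannot be told apart in these files. Of the list of progenitor homeobox and SOX genes, 30 of 35 had a promoter pair, against 1 of 16 genes of microglia and blood cells, 3 of 8 of lens, 7 of 15 of endothelium, pericytes and mesenchyme, and 7 of 13 of astrocytes and pigment epithelium.

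Reference sequence around the control summit is shown for 6 members that hold the E-box consensus, since this is the site type that NGN3 is known to bind and every one of these peaks has an Ngn3-OE partner of its own. The sequences are from the mouse genome build mm10 (GRCm38), read 5′ to 3′ on the strand of the nearest gene, without annotated untranslated exons, and the capitals mark the consensus on either strand. Summits of Zfp523, Sorbs3, Adcyap1r1, Tmem204 and Tbr1 lie in annotated introns, and that of Elavl4 lies in a coding exon.
Zfp523, chr17:28185880-28186030, plus strand: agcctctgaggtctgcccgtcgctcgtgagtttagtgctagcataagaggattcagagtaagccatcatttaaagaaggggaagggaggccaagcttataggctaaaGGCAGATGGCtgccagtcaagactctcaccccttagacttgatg
Sorbs3, chr14:70204031-70204181, minus strand: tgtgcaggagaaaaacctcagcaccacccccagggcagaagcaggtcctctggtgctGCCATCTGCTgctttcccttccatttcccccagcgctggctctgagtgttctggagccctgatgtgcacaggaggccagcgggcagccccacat
Adcyap1r1, chr6:55459575-55459725, plus strand: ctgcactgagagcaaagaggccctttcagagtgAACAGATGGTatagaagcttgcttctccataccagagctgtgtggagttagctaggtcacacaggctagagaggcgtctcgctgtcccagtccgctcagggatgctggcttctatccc
Elavl4, chr4:110292568-110292643, minus strand: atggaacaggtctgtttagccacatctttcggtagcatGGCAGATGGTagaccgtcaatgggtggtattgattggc
Tmem204, chr17:25077881-25078031, minus strand: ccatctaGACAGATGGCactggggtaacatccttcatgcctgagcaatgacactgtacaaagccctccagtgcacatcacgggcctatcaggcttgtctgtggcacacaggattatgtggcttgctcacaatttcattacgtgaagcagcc
Tbr1, chr2:61807181-61807331, plus strand: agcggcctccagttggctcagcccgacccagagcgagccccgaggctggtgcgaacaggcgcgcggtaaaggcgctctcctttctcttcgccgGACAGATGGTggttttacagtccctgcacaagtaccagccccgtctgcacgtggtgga

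Photoreceptor genes are shown next, because 10 member peaks lay at them and 7 of the 10 sat within 100 bp upstream of a start. Capitals mark the core GGATTA or the E-box core CATCTG on either strand. The summits of Rcvrn, Cngb1 and Slc24a1 lie outside the annotated gene, and those of Pde6h, Nr2e3 and Opn1sw lie in annotated introns upstream of an internal start.
Rcvrn, chr11:67695196-67695325, plus strand: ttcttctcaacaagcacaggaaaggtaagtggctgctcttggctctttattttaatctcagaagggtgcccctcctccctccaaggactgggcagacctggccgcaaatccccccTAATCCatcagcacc
Cngb1, chr8:95306586-95306683, minus strand: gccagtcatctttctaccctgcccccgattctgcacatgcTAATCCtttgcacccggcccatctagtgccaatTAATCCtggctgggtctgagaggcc
Pde6h, chr6:136954370-136954520, plus strand: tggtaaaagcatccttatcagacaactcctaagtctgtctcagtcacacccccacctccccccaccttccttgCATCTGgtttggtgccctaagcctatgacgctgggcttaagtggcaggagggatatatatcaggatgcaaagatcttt
Slc24a1, chr9:64951608-64951716, minus strand: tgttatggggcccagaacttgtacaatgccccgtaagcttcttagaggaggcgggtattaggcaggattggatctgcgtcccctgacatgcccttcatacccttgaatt
Nr2e3, chr9:59950122-59950272, minus strand: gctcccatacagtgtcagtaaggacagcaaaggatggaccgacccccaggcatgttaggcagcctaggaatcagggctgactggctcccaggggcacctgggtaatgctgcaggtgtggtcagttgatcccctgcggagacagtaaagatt
Opn1sw, chr6:29380514-29380619, minus strand: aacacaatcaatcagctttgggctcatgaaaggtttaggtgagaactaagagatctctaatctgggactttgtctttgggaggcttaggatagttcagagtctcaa

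The members fell into 2 kinds that differed in how their peaks were paired. In 400 members, called joined, the Ngn3-OE peak overlapped 2 or more control peaks. In 667 members, called separate, the control peak had an Ngn3-OE partner of its own. Separate members made up 3.13% of all promoter pairs. Among the 19996 promoter pairs with a partner of their own, the 667 separate members (3.34%) compare with 484 pairs that fell by the member threshold or more. Joined partners were found for 37.5% of members and for 4.64% of the other promoter pairs.

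**Figure D1:**
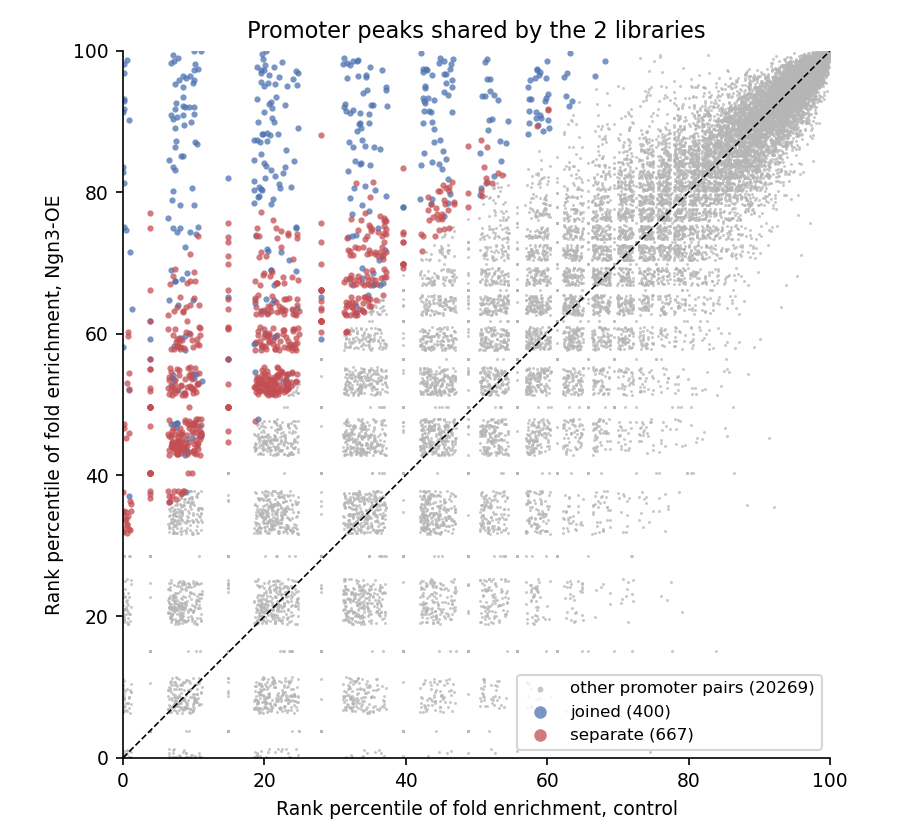
Rank percentile of fold enrichment in the control library (x axis) against the Ngn3-OE library (y axis), 1 point per promoter pair, with the dashed line marking equal rank. The 667 separate members (red) form a band above the other 20269 pairs (grey), the 400 joined members (blue) fill the upper left, and weak peaks fall into blocks set by whole tags.

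The largest rises in rank belonged to joined members, and at these promoters the strongest control peak was already about as high as the Ngn3-OE peak. For Eps15l1, an endocytic adaptor gene, a control peak downstream of the start had a fold enrichment of 3.07 (9 tags), and the Ngn3-OE peak paired with it had 32.6 (106 tags), a rise of 98.2 percentiles. The same Ngn3-OE peak also covered a control peak of fold enrichment 33.4 (108 tags). At Pex2, a peroxisome biogenesis gene, the paired values were 2.94 and 27.6, whereas the strongest control peak under that partner had 31.4. At Prdx3, which encodes a mitochondrial peroxidase and had the highest Ngn3-OE percentile of any member (99.96), the paired values were 3.95 and 45.4 and the strongest control peak also had 45.4. All 20 of the largest rises, among them Sptssa, Smc6, Arhgap5, Dhx57, Ube3c and Pak2, were of this kind, as were the 10 members with the highest Ngn3-OE percentile, such as Pik3c3, Helb and Chd8.

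**Figure D2:**
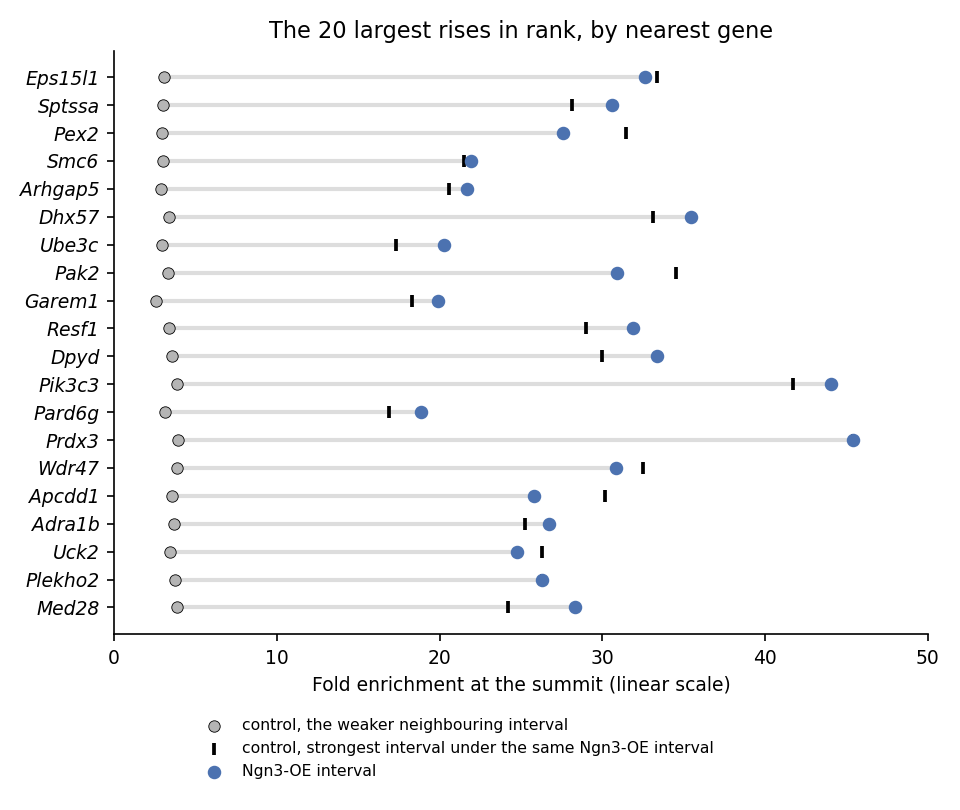
Fold enrichment (linear x axis) for the 20 members with the largest rise in rank, 1 row per nearest gene: the weaker control peak that the rule paired (grey), the strongest control peak under the same Ngn3-OE peak (black tick) and the Ngn3-OE peak (blue). The weaker control peaks lie between 2.55 and 3.95, and each black tick lies near the blue point.

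Over all 400 joined members, 394 sat beside a stronger control peak under the same partner, with a median of 35 tags and a fold enrichment of 15.9. The Ngn3-OE percentile minus that of the strongest control peak had a median of 0.575 (quartiles −1.94 and 4.62). Of these 394, the difference was within 10 percentiles in 320 and reached the member threshold in 7. The Ngn3-OE summit lay within 100 bp of the strongest control summit in 341 of the 394 and within 100 bp of the member's own control summit in 29. Of the 165 members that reached percentile 90 or more in Ngn3-OE, 163 were joined. In most joined members the rank rise was thus measured between neighbouring summits, and the account that follows is of the 667 separate members unless stated.

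Separate members were weak peaks in control that gained a few tags at the same place. Their median fold enrichment was 4.23 (quartiles 3.75 and 4.76) in control and 7.32 (6.39 and 8.85) in Ngn3-OE. In whole tags at the summit, recovered from the deposited statistics, the medians were 7 and 14. Control and Ngn3-OE summits lay within 100 bp of each other in 629 of the 667, and the peaks were narrow, at a median of 103 bp in control against 135 bp after Ngn3-OE. None had as few or fewer tags in Ngn3-OE than in control, which the rule largely fixed. The ratio of tags had a median of 1.92 (quartiles 1.73 and 2.2), and 329 separate members had at least 2-fold more tags. Over all promoter pairs with tags in both libraries, 830 of 21333 (3.89%) had at least 2-fold more in Ngn3-OE. Promoter pairs with a joined partner, 1340 in all, were not left out of this count, and their tags can belong to different summits.

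At such low counts 1 tag moved a peak by many ranks. Among control peaks at the most frequent background, 3 tags stood at percentile 3.80, 4 tags at 14.9, 5 tags at 28.0, 6 tags at 39.6 and 7 tags at 48.7. The matching Ngn3-OE percentiles were 3.83, 15.2, 28.5, 40.3 and 49.6, and the most frequent backgrounds of the libraries had a ratio of 0.983. The exact 95% interval of the tag ratio, which covers counting error only, lay wholly above 1 in 91 of the 667 separate members. Since members were picked as the most extreme of 21336 pairs, this count and every interval of a member's tag ratio below describe counting error only and are no test of a rise. Of the 1532 promoter pairs under percentile 20 in control, 489 were members, as were 429 of 2572 pairs at 20 to 40, 135 of 3304 at 40 to 60, 14 of 4009 at 60 to 80, and 0 of 9919 above. Pairs under percentile 20 as a whole had a median shift of 19.6, and those at 20 to 40 a median of 10.8.

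Zfp523, a zinc-finger transcription factor gene, had the largest rise among separate members. Its peak 232 bp upstream of the start had 3 tags in control and 15 in Ngn3-OE, a ratio of 5.00 (95% interval 1.41 to 26.9), and it rose from percentile 3.80 to 77.1. Grin2c, which encodes a subunit of the NMDA glutamate receptor, followed with 3 and 14 tags at a peak 30 bp upstream of its start, a ratio of 4.67 (1.30 to 25.3). Separate members rose by at most 73.3 percentiles, and 2 of them reached percentile 90. Their median shift was 36.3, against 51.3 for joined members and 38.8 for all members.

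Photoreceptor genes supplied 10 separate and no joined members. Rod genes held 8 member peaks among 51 promoter pairs (15.7%, at 7 genes), and cone genes held 2 among 20 (10%), where the rule gives 5% over all promoter pairs. Among the 5% of promoter pairs with the largest fall were 3 rod pairs (5.88%) and 0 cone pairs. The lists were drawn up with results of these data known, so these shares are descriptions. When only peaks with a −log10 q of at least 5 in both libraries were ranked, rod genes had 3 members and cone genes 0.

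Nr2e3, a nuclear receptor that promotes rod and represses cone genes, had 10 tags in control and 24 in Ngn3-OE at a peak 80 bp upstream of a start, a ratio of 2.40 (1.11 to 5.62). Cngb1, the rod channel subunit gated by cyclic GMP, had 6 and 19 tags at 23 bp upstream, a ratio of 3.17 (1.22 to 9.69). Rorb, an orphan nuclear receptor needed for rod differentiation, had 13 and 28 tags, a ratio of 2.15 (1.08 to 4.53), at 643 bp downstream of a start.

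Recoverin (Rcvrn), a calcium sensor of phototransduction, had 3 and 9 tags, a ratio of 3.00 with an interval of 0.749 to 17.2. Slc24a1, the rod sodium, calcium and potassium exchanger, and Mef2c, a transcription factor active in rods, each had 5 and 10 tags. Otx2, the homeobox gene that specifies photoreceptors and bipolar cells, had 2 separate member peaks, with 7 and 18 tags at 608 bp downstream of one start and 4 and 8 tags at 42 bp downstream of another. The tag ratio of the first was 2.57 (1.02 to 7.28).

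In cones, Opn1sw (short-wave opsin) had 5 and 9 tags and Pde6h (an inhibitory subunit of the cone phosphodiesterase) had 5 and 11. They lay 31 and 78 bp upstream of a start. Among the 70 promoter pairs of rod and cone genes together, 18 had a partner of their own and a control percentile under 40, and 10 of these were members. Over all promoter pairs of that kind, 16.9% of 3665 were. Under percentile 20 the counts were 6 of 7 photoreceptor pairs against 24.8% of all such pairs, and from 20 to 40 they were 4 of 11 against 12.5%. These comparisons by starting rank were added after the values were seen.

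The other photoreceptor promoter pairs moved little. The 60 that were not members had a median shift of 0.589 percentiles, and 2 fell by the threshold or more. Crx, the homeobox gene that activates photoreceptor genes, had 88 tags in control and 118 in Ngn3-OE, at percentiles 85.6 and 89.1. Nrl, the gene of the rod-determining leucine zipper factor, had 43 and 63 tags at its stronger peak.

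**Figure D3:**
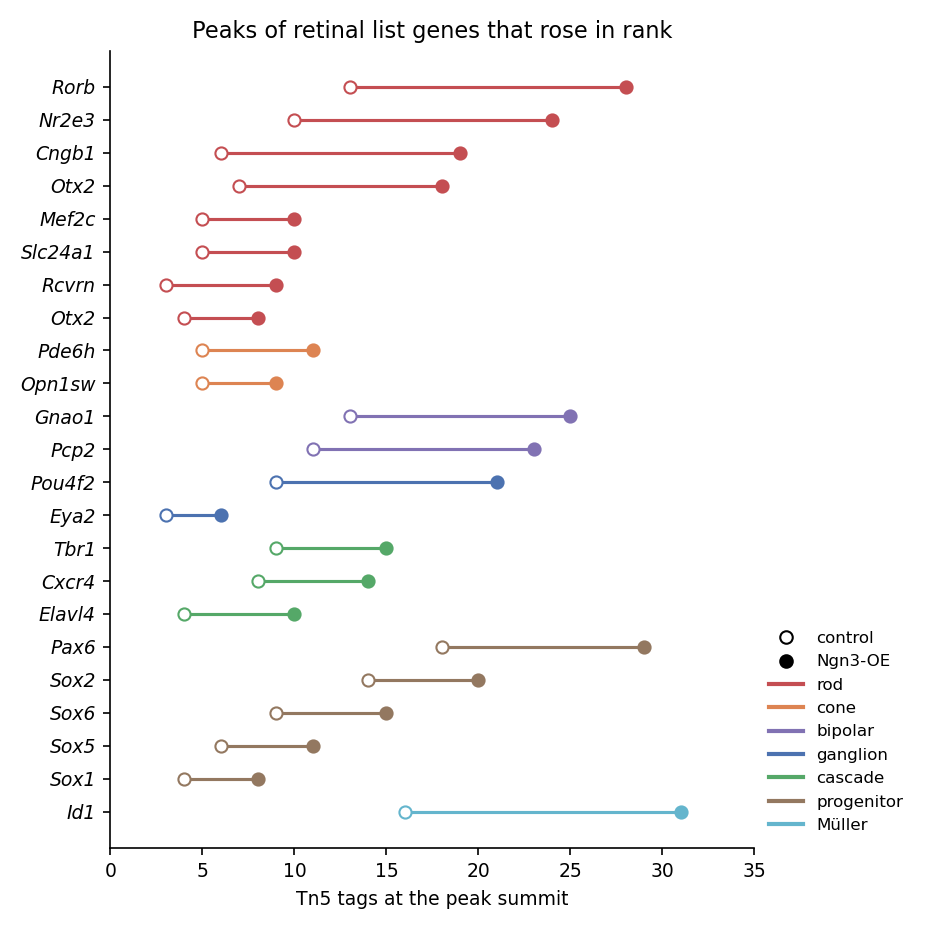
Tn5 tags at the summit (linear x axis from 0) in control (open circle) and Ngn3-OE (filled circle), 1 row per peak, coloured by list. The amacrine and horizontal cell list (Prox1) is not drawn. The peaks shown are separate members at genes of the rod, cone, bipolar, ganglion cell, neurogenic cascade, progenitor and Müller glia lists. All lie between 3 and 31 tags, and 13 to 28 tags at Rorb and 16 to 31 at Id1 are among the higher values.

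Genes of other retinal classes held fewer member peaks, and counts this small leave no order among the lists. Bipolar cell genes held 4 members among 27 pairs (14.8%), of which both Otx2 peaks are counted above, and as many were among the 5% of promoter pairs with the largest fall. With a −log10 q of at least 5 in both libraries the list had 2 members. Besides the Otx2 peaks, the 4 members included Pcp2, a Purkinje and rod bipolar cell gene, with 11 and 23 tags. Gnao1, the G protein subunit of ON bipolar cells, had 13 and 25. Retinal ganglion cell genes held 3 members among 44 pairs (6.82%). Pou4f2, a POU homeobox factor required for ganglion cell differentiation, had 9 and 21 tags at 588 bp upstream of its start, a ratio of 2.33 (1.02 to 5.79), while its other promoter pair, 414 bp downstream, had 9 and 8. Eya2 had 3 and 6 tags, and Nefh, a neurofilament subunit, was a joined member. In the same list 7 pairs were among the 5% of promoter pairs with the largest fall. Amacrine and horizontal cell genes held 2 members (Prox1, and Nr4a2 as a joined one) and 6 falling pairs among 37.

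Progenitor homeobox and SOX genes held 6 members among 45 pairs (13.3%), 5 of them separate, and 4 falling pairs. Pax6, the paired-box factor of the eye field, had 18 and 29 tags at 575 bp upstream of a start. Sox2, which maintains neural progenitors, had 14 and 20 tags at 603 bp downstream. Sox1 had 4 and 8 tags, Sox5 had 6 and 11, Sox6 had 9 and 15, and Six3 was joined. Müller glia genes held 2 members among 65 pairs (3.08%), the same Sox2 peak and Id1, an inhibitor of bHLH factors that is also a BMP target, with 16 and 31 tags, a ratio of 1.94 (1.03 to 3.79). In this list 11 pairs (16.9%) were among the 5% with the largest fall. Among glial genes that were not members, Rlbp1 had 17 and 16 tags, while its percentile rose from 51.1 to 58.6. Slc1a3 had 34 and 39 tags at its stronger peak, which rose by 3.55 percentiles. Its weaker peak had 19 and 29 tags and rose by 15.6 percentiles.

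The neurogenic cascade below neurogenins was near the background of the rule, with 4 members among 63 pairs (6.35%), and 1 with a −log10 q of at least 5 in both libraries. Cxcr4, a chemokine receptor of migrating neurons, had 8 and 14 tags. Elavl4, a neuronal RNA-binding protein, had 4 and 10, and Tbr1, a T-box factor of postmitotic neurons, had 9 and 15. Nhlh1, a bHLH gene of young neurons, was joined. Neurod1 and Hes6, known targets of neurogenins, stood at control percentiles 83.0 and 91.4, too high for the rule to admit them. Neurod1 had 95 tags in each library and Hes6 had 114 and 118. Their Ngn3-OE percentiles were 79.6 and 92.2. The Notch ligand gene Dll1 was not a member and had 25 and 21 tags, at percentiles 42.9 in control and 44.1 in Ngn3-OE. Insm1 had 46 and 64 tags at its stronger peak, while its weaker one, with 19 and 28 tags, rose by 26.8 percentiles and stayed below the threshold. Atoh7, the bHLH gene required for ganglion cell genesis, had 23 and 21 tags at its stronger peak. Its weaker peak had 13 and 11 tags and fell from percentile 45.3 to 33.3.

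The remaining fixed lists held 0 to 6 members each. Cell cycle genes held 3 among 87 pairs (3.45%), of which Rbl2 was separate. Notch pathway genes held 3 among 63, bHLH activator genes 2 among 39, and pancreatic endocrine genes 1 among 35. Genes of the neuronal cytoskeleton and synapse held 6 among 104, including the synaptic adhesion genes Nlgn1 and Nlgn3 as separate members. TGF-beta and BMP pathway genes held 6 among 70, including separate peaks of Smad5 (10 and 26 tags) and Bmp7 (7 and 13) and 2 joined peaks of Bmp2. Of the 6, 3 were separate, and with a −log10 q of at least 5 in both libraries the list had 1 member.

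For cells that a retinal sort could also hold, genes of endothelium, pericytes and mesenchyme had 4 members among 11 pairs, namely 2 joined peaks of Cldn5 (5 tags each in control and 10 under their shared partner) and separate peaks of Flt1 (4 and 7 tags) and Cspg4 (6 and 11). With a −log10 q of at least 5 in both libraries this list had 0 members. Genes of astrocytes and pigment epithelium had 0 among 11, of microglia and blood 0 among 1, and of lens 1 among 5 (Bfsp1, joined). The part of such cells in the member peaks was not tested. In all, 50 member peaks lay at genes of the lists, 34 of them separate, among 697 promoter pairs. In bulk libraries a change within cells and a change in the share of cell types cannot be told apart.

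Among larger gene families, neurotransmitter receptors held 13 members among 129 pairs (10.1%), 8 of them separate. They included Htr1b, a serotonin receptor (9 and 29 tags, ratio 3.22, 1.49 to 7.74), Gria1, an AMPA receptor subunit (8 and 18), and Grin2c, described above. The GABA receptor gene Gabrb1 was joined. Ion channel genes held 17 among 215 pairs (7.91%), 10 of them separate, including the sodium channel gene Scn2a (3 and 10 tags). Adhesion molecules held 16 among 199 (8.04%), and solute carriers 28 among 404 (6.93%). Among the 5% of promoter pairs with the largest fall were 7 pairs of neurotransmitter receptors (5.43%) and 13 of ion channels (6.05%). Adhesion molecules had 9 such pairs (4.52%) and solute carriers 26 (6.44%). Zinc finger genes named Zfp held 16 among 546 (2.93%), and mitochondrial ribosomal protein genes 2 among 96 (2.08%). Cytosolic ribosomal protein genes were near the rule's share, with 6 among 110 (5.45%). So were genes of vesicle release and trafficking, with 12 among 232 (5.17%), and axon guidance genes, with 6 among 111 (5.41%). In the axon guidance family 11 pairs (9.91%) were among the 5% with the largest fall.

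Most member genes had 1 member peak, and 40 had 2 or more. In 14 of these, at least 2 of the peaks were separate. Besides Otx2, they included Hhip, a hedgehog-binding protein (10 and 11 tags at one peak and 13 and 20 at the other), Ank1, an ankyrin (6 and 10, 7 and 15), Cd276, an immune checkpoint ligand (5 and 13, 5 and 10), and Map4, a microtubule-associated protein (7 and 12, 4 and 7).

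Members lay further from the transcript start than other promoter pairs. A summit within 100 bp of a start was found in 24.1% of separate members, 16% of joined members and 48.7% of other pairs. More than 100 bp downstream lay 49.8% of separate members, 63.5% of joined members and 28.1% of others. A stronger control promoter peak of the same gene, at any of its starts, was present for 75.4% of separate members, 95.2% of joined members and 36.2% of others. Weak peaks as a class also lay further from the start. Other pairs with a partner of their own and a control percentile under 40 were compared. Of these, 19.3% were within 100 bp of a start and 57.6% were over 100 bp downstream. A stronger control promoter peak of the same gene was present for 81.3%. Separate members under the same limit of 40 had 23.3%, 50.4% and 77.0%. The limit does not make the groups equally weak, since 53.1% of these members and 32.9% of the other weak pairs were under percentile 20. Summits within 100 bp of a start were at 19.4% of separate members and 15.6% of others under percentile 20 (difference 3.83 percentage points, 95% interval −0.745 to 8.89), and at 27.8% and 21.1% from 20 to 40 (6.78, 1.61 to 12.5). Summits over 100 bp downstream differed by −6.84 (−13.0 to −0.718) and −9.58 (−15.6 to −3.45) in these ranges.

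**Figure D4:**
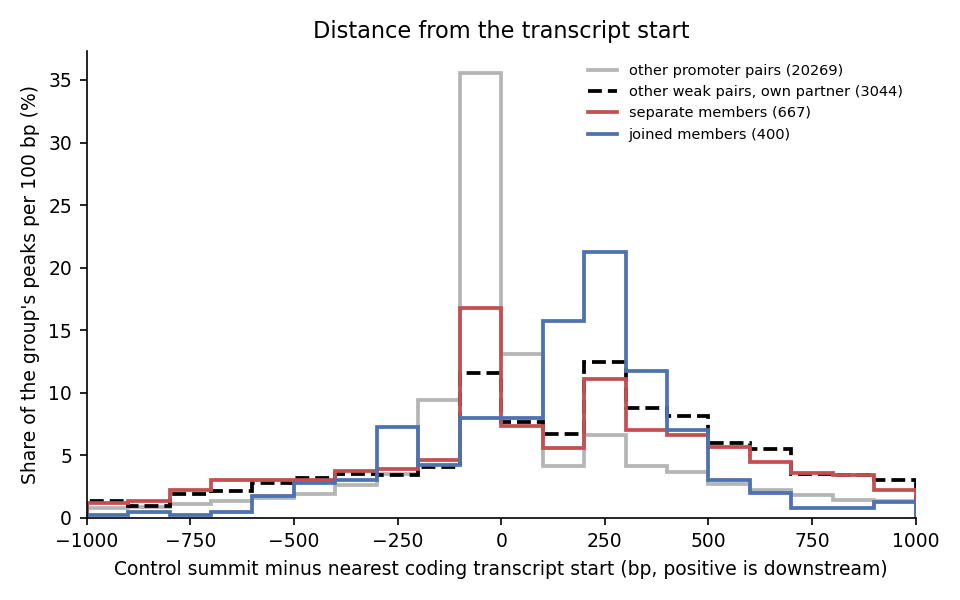
Distance of the control summit from the nearest coding transcript start (x axis, positive downstream) against the share of each group's peaks in bins of 100 bp (y axis). Other promoter pairs (grey) peak just before the start, joined members (blue) 100 to 400 bp after it, and separate members (red) follow the curve of other weak pairs (dashed) with a higher share just before the start.

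GGATTA and the E-box consensus were more frequent at separate members than at other promoter pairs. Motifs were counted on both strands within 100 bp of the control summit, and the intervals cover counting of peaks only. GGATTA was present at 73 of 667 separate members (10.9%, 95% Wilson interval 8.80 to 13.5). It was present at 4.62% of other promoter pairs and 5.95% of the weak ones, 4.00% of joined members, and 4.69% of the 5% with the largest fall. The E-box consensus, which contains the core CATCTG and so overlaps with it, was present at 16 separate members (2.40%, 1.48 to 3.86), and at 0.794% of other pairs, 1.12% of the weak ones and 0.562% of falling pairs. The core alone was found at 14.5% of separate members, 8.23% of other pairs and 10.6% of weak ones. Against the other weak pairs, separate members under percentile 40 differed by 4.68 percentage points for GGATTA (95% interval 2.32 to 7.47), 3.59 for CATCTG (0.823 to 6.73) and 1.14 for the consensus (0.130 to 2.66). Split by control percentile, these differences were uneven. Under percentile 20 they were 2.38 for GGATTA (−0.403 to 5.90), 0.0345 for CATCTG (−3.60 to 4.30) and 1.73 for the consensus (0.199 to 4.15, on 9 and 10 peaks). From 20 to 40, where separate members still had a lower median percentile (24.5) than the others (32.2), they were 7.97 (4.21 to 12.6), 7.24 (3.07 to 12.2) and 0.543 (−0.591 to 2.82). Most separate members, 89.1%, held no GGATTA and 85.5% no CATCTG in this window.

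**Figure D5:**
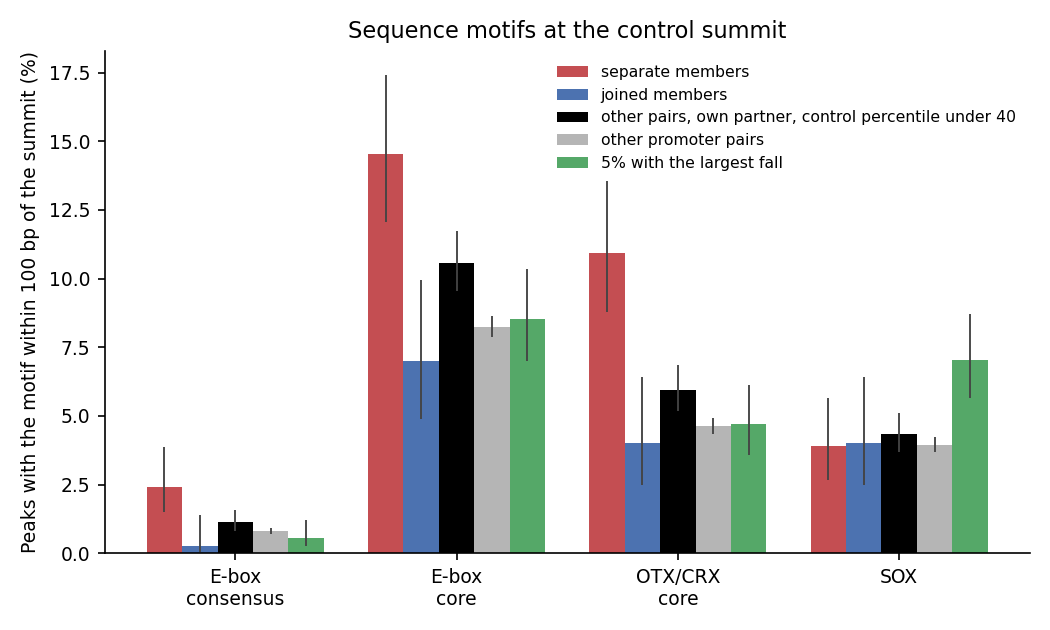
Share of peaks with a motif within 100 bp of the control summit (y axis, from 0), with 95% Wilson intervals over peaks, for separate members, joined members, other weak pairs, other promoter pairs and the 5% with the largest fall. Separate members stand highest for the E-box consensus, the E-box core and the OTX and CRX core, and falling pairs stand highest for the SOX motif (7.03%).

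The SOX motif was not more frequent at members. It was present at 3.90% of separate members, 3.94% of other pairs and 7.03% of the 5% with the largest fall. Another E-box core, CACCTG, was more frequent at separate members (16.9%) than at other pairs (11.3%), and CACGTG was less so (4.198% and 7.38%). The other weak pairs had 13.6% for CACCTG and 4.37% for CACGTG, the latter close to the separate members. Motifs of constitutive promoters were scarcer than at other pairs, with the GC box GGGCGG at 39.0% and 56.5%, CCAAT at 17.4% and 26.5%, and the cAMP response element TGACGTCA at 0.300% and 2.41%. The weak other pairs had 41.2%, 15.05% and 0.263%, close to the separate members. The median GC content was 62.7% at separate members, 64.2% at weak other pairs and 65.2% at all other pairs.

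The E-box consensus was found at 17 members, and Slc35b2 was the 1 joined peak among them. After Zfp523, the largest rises were at Cyp2d22 (6 and 15 tags), Sorbs3, an adaptor of the actin cytoskeleton (7 and 17), Gm6133 (5 and 21) and Adcyap1r1, the receptor for the neuropeptide PACAP (4 and 13 tags, ratio 3.25, 1.00 to 13.7). Tmem204 had 7 and 25 tags (ratio 3.57, 1.502 to 9.78). Elavl4 and Tbr1 were the 2 members of the neurogenic list with the consensus. GGATTA lay within 100 bp of the summit of 2 of the 10 photoreceptor member peaks, Rcvrn and Cngb1, of which Cngb1 held 2 copies in the printed stretch. CATCTG lay near 2 of the 10, Cngb1 and Pde6h, and none held the consensus.

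Other peaks of the member genes had median shifts close to those of other genes. The 788 other promoter pairs of the 653 genes with a separate member had a median shift of 0.0899 percentiles, against 0.0942 for promoter pairs of genes with no member. Their quartiles were wider (−5.07 and 5.09, against −3.39 and 4.26), and 3.43% against 2.41% fell by the member threshold or more. Promoter pairs that rose past the threshold are members by the rule, so neither group could hold any. Shared peaks further than 1 kb from any start, assigned to the nearest gene, had a median shift of 1.73 at separate member genes (3886 pairs) and 1.77 at other genes (51115 pairs). A rise past the member threshold was seen in 9.01% and 9.42% of them, and a fall as large in 7.54% and 6.62%. Over all distal shared pairs 9.32% rose that far, against 5% of promoter pairs and 8.32% of all shared pairs. Starting ranks differed, with a median control percentile of 76.8 for promoter pairs and 60.1 for all shared pairs. It was 55.8 for the distal pairs of separate member genes and for those of other genes.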

How the data were processed

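ATAC-seq peaks came from 1 control and 1 Ngn3-OE library of sorted GFP-labelled cells, and the group of each library was taken from its title. According to the study's methods, the authors trimmed reads with Trimmomatic, aligned them to mm10 with Bowtie2, removed duplicates, mitochondrial reads and blacklisted regions, kept fragments of at most 120 bp, shifted reads by 4 and 5 bp for the Tn5 offset and called peaks per library with MACS2 at q under 0.05. The deposited values are the ratio of summit tags to local background (fold enrichment), the −log10 p-value and the −log10 q-value of each peak, and a score that is 10 times the −log10 q-value. The score was not used. Sequencing depth is not given in these files.

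Lines sharing an interval on chromosomes 1 to 19, X and Y were reduced to the one of highest fold enrichment, and control intervals were paired with the Ngn3-OE interval of largest overlap (1 bp or more). Percentiles of fold enrichment were set over all distinct intervals of a library. Starts came from GENCODE M21 (GRCm38, the build of the peaks) and sequence from the RefSeq copy of that build. Whole tags at a summit were solved from the fold enrichment and −log10 p-value, within 0.001, for all but 2 control and 4 Ngn3-OE intervals. Steps were tested on simulated data. Motifs were searched in 201 bp. The genes named are the 20 largest rises, the 10 highest Ngn3-OE percentiles, members with the E-box consensus, genes of the gene lists, genes with 2 or more member peaks, pairs at the threshold and a set of marker genes, some of which are not reported here. Members of gene families (Grin2c, Htr1b, Gria1, Gabrb1 and Scn2a) were named after their values were seen. The members and the lists were chosen with earlier results of these data known. Shares have 95% Wilson intervals, their differences Newcombe intervals, and tag ratios exact intervals; all cover counting only, and no p-value was computed for any comparison. Python 3.11.15, numpy 2.4.6, pandas 2.3.3, scipy 1.17.1 and pysam 0.24.0 were used. Other settings of the ranking, pairing, promoter window and motif window were tried (14, and 2 more chosen after seeing the data, beside a split by control percentile). The closing section gives the summary values that moved, and only some of the counts for single lists that did.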

Additional observations from a re-analysis of the deposited data

How the results depend on the processing

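No paired analysis was possible because each group has 1 library, and for the same reason no library could be left out. Of 138 summary values recomputed, 94 stayed within the interval of the value reported (or within 1.5 times a count). Differences are members minus other promoter pairs, in percentage points. The median rank shift of 38.8 became 40.3 ranked by −log10 q, 32.6 with summits within 100 bp, 30.5 with 50% overlap of both peaks, 32.9 with 1-to-1 pairs, 50.9 in the upper 2.5% (533 peaks), 28.7 in the upper 10% (2134 peaks), 35.9 with a −log10 q of at least 5 in both libraries and 26.0 with percentiles within promoter pairs. The GGATTA difference of 3.72 became 6.04 with near summits, 6.14 with 50% overlap, 5.93 with 1-to-1 pairs and 6.80 with the stricter q. The GC difference of −0.498 became −1.99, −2.49 and −1.99 under the first 3 of these and −1.99 with starts of every biotype. The difference in summits within 100 bp of a start, −27.6, became −24.7 with 1-to-1 pairs, −24.4 in a 3 kb window and −22.3 with percentiles within promoter pairs. The difference in a stronger control promoter peak of the same gene, 46.6, became 40.4 with near summits, 41.7 with 50% overlap and 39.5 with 1-to-1 pairs. It became 42.2 at 3 kb, 38.6 with every biotype, 50.5 in the upper 2.5% and 38.5 with percentiles within promoter pairs. The E-box consensus difference of 0.799 (95% interval 0.188 to 1.75) became 0.684 in the upper 2.5%, with an interval that includes 0 (−0.0664 to 2.12). The SOX difference of −0.00571 became −1.69 with 250 bp flanks. With the stricter q, 28 members in place of 50 lay at list genes, and 289 of the 1067 members were also members there. Of the 1067, 771 (72.3%) had a control −log10 q under 5. Of 90 counts for single lists, 37 moved by more than 1.5 times. With the stricter q the neurogenic cascade went from 4 to 1, TGF-beta and BMP from 6 to 1, endothelium, pericytes and mesenchyme from 4 to 0, and Müller glia from 2 to 4. Ranked by −log10 q, Müller glia went the other way, from 2 to 0, and retinal ganglion cell genes went from 3 to 1.

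Without the joined members (added after seeing the data), 667 members had a median shift of 36.3 and a tag ratio of 1.92 in place of 2.14. The differences were 6.31 for CATCTG, 6.33 for GGATTA, −2.49 for GC, −24.6 for summits near the start and 39.2 for a stronger peak of the same gene. Limited to separate partners and control percentiles under 40 (also added), 621 members had a median shift of 36.5, a tag ratio of 1.88 and 32 peaks at list genes. Here 2 differences reversed, to 4.10 for summits near the start and −4.37 for a stronger peak of the same gene.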
